A study of Mus musculus with 6 samples.

Results

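Mitochondrial ribosomal protein genes were taken as every gene symbol in the count tables made of Mrpl or Mrps, a number and at most 1 letter. The rule uses names alone and found 76 genes among 33924 symbols, 47 of them named for the large subunit and 29 for the small subunit. They were followed in E14 mouse embryonic stem cells, in 3 libraries labelled Rif1-KO and 3 libraries labelled control (WT), sequenced as mRNA from bulk cultures. RIF1 is a chromatin protein known for setting replication timing and for its part in break repair and silencing, and the series asks how its loss alters expression. All 6 labels name 2i medium, which keeps the cells in naive pluripotency, and Day 0. The protocol text, shared by both groups, gives 0.1 µM 4-OHT for 2 days and a further day without it. Against this, the columns in the file headers carry TAM in the 3 Rif1-KO libraries and 2i in the 3 control libraries, so a difference in drug or medium between the groups cannot be told apart from the genotype. The sources used here give neither the way Rif1 was disrupted nor the number of clones, and nothing says that the replicates were separate cultures, so p-values measure the spread between these libraries, which may be technical.

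The mitochondrial ribosome translates the few proteins encoded by mitochondrial DNA, all of them subunits of the respiratory chain and ATP synthase. Its 12S and 16S RNAs are transcribed in the organelle, while every one of its proteins is encoded in the nucleus, made in the cytosol and imported. Some of these proteins descend from bacterial ribosomal proteins, and others are found in mitochondria alone and cover or replace stretches of RNA that the organelle has lost. The small subunit decodes the mRNA, and the large subunit joins the amino acids and feeds the new chain toward the inner membrane.

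Total counts ran from 9185062 to 10980777 in Rif1-KO libraries and from 8383632 to 9218036 in control libraries, and log CPM of libraries in the same group correlated at 0.993 to 0.995 across genes. Rif1 itself stood at 602, 604 and 664 CPM (counts scaled to library size with TMM factors) in Rif1-KO libraries and at 673, 657 and 700.1 CPM in control libraries, a log2 fold change of −0.12 ± 0.05 (adjusted p = 0.0509, quasi-likelihood test in edgeR, Benjamini-Hochberg over all genes). Over the 14 alternative fits this value ran from −0.29, with an offset for GC content and length, to −0.09, and it passed in 8 of them. A count over the whole gene does not show a lost exon, so it does not check the labels, and the groups are called here by their labels. The 10 embryonic stem cell markers summed to 7066 to 7426 CPM in Rif1-KO libraries and to 6767 to 7206 CPM in control libraries. Of these 10 markers 4 rose and 3 fell, where 26.1% of all tested genes rose and 24.8% fell. Dppa5a, Tcfcp2l1, Klf4 and Nanog rose, at ratios of 1.378, 1.249, 1.13 and 1.082. Sox2, Fgf4 and Tdgf1 fell, at ratios of 0.6855, 0.7804 and 0.9117. Sox2 stood at 469 ± 19.4 CPM in Rif1-KO libraries and 683 ± 31.8 CPM in control libraries (SD, n = 3 each; adjusted p = 1.78e-08). The 10 fibroblast markers, for feeder cells, summed to 22.8 to 26.0 CPM in Rif1-KO libraries and to 23.8 to 33.5 CPM in control libraries, with Lum at 0 in all 6 and Dcn and Postn at or under 0.109 CPM. Most of that sum came from Thy1 and Pdgfrb. Thy1, which other cell types express too, fell, at 5.67 ± 0.601 CPM in Rif1-KO libraries and 11.3 ± 2.56 CPM in control libraries (adjusted p = 4.11e-05), while Pdgfrb did not pass, at 12.6 ± 1.77 CPM in Rif1-KO libraries and 10.5 ± 0.964 CPM in control libraries (SD, n = 3 each).

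Transcripts of the mitochondrial ribosome were lower as a group in Rif1-KO libraries. The 76 genes summed to 2844, 2918 and 2846 CPM in Rif1-KO libraries, against 3359, 3393 and 3374 CPM in control libraries. Every Rif1-KO library lay below every control library. The means were 2869 ± 42.2 CPM in Rif1-KO libraries and 3375 ± 16.9 CPM in control libraries (SD, n = 3 each), a ratio of 0.850. As a share of all deposited counts, before any scaling, the genes held 0.287%, 0.294% and 0.283% in Rif1-KO libraries and 0.337%, 0.333% and 0.335% in control libraries. In bulk RNA, fewer cells that express a gene and less of its RNA per cell cannot be told apart.

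The sums of both subunits were lower. Large-subunit transcripts summed to 1800, 1841 and 1793 CPM in Rif1-KO libraries and to 2147, 2176 and 2150 CPM in control libraries, a ratio of 0.839. Small-subunit transcripts summed to 1044, 1077 and 1053 CPM in Rif1-KO libraries and to 1212, 1216 and 1224 CPM in control libraries, a ratio of 0.869. The sum of small over the sum of large was therefore slightly higher in Rif1-KO libraries, at 0.580, 0.585 and 0.587, than in control libraries, at 0.565, 0.559 and 0.569, with no overlap. Mrps18a and Mrps30 carry small-subunit names but sit in the large subunit in solved structures. With these 2 genes moved, the ratio ran from 0.4999 to 0.508 in Rif1-KO libraries and from 0.488 to 0.496 in control libraries, still without overlap but with a difference that shrank to 1.021-fold, from 1.035-fold by symbol. No test was made of these sums.

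**Figure D1:**
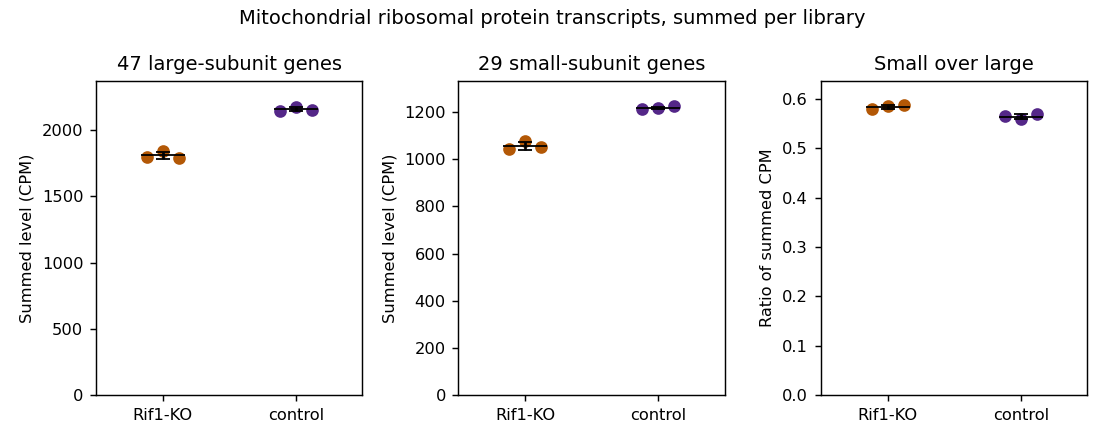
Summed CPM of the 47 large-subunit genes (left) and 29 small-subunit genes (middle), and the ratio of the 2 sums (right), for 3 Rif1-KO libraries and 3 control libraries. Points are libraries and bars the mean ± SD; both sums are lower in every Rif1-KO library, with large-subunit sums of 1793 to 1841 CPM there and 2147 to 2176 CPM in control libraries.

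Gene by gene, decreases were shallow and widespread. Of the 76 genes, 75 had enough counts to be tested, and a change was called at an adjusted p under 0.05 in a fit over all 14250 tested genes. By that test 44 of the 75 fell (58.7%) and 2 rose, so that 46 changed in either direction, where 50.9% of all tested genes changed. Among all tested genes 24.8% fell and 26.1% rose, and among those within the members' own range of mean CPM 25.9% fell and 26.4% rose, so the share that fell was above the background and the share that rose, 2.67%, was below it. The median log2 fold change was −0.24, a ratio of 0.849, with quartiles of −0.36 and −0.12, while the median over all tested genes was 0.00. Of the 75, 67 (89.3%) had a fold change below 0, against 49.6% of all tested genes. Every Rif1-KO library lay below every control library at 46 of the 75 genes, or 61.3%, against 27.8% of all tested genes. The opposite arrangement held at 3, against 29.4% of all tested genes.

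The decreases were small in size. Among the members that passed, 24 fell by at least 0.32 on the log2 scale (14.3% of all tested genes did) and 2 rose by as much (18.1% did). This size was a cutoff on the estimated change, and no test was made against it. Leaving out control replicate 2 took the count that rose past this size to 1, since Mrpl36 then stood at 0.31. The steepest change was that of Mrps15, at a ratio of 0.660, and without it the summed level of the other 75 genes had a ratio of 0.853. Of the 29 that did not pass, 23 had fold changes below 0 and 6 above 0.

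**Figure D2:**
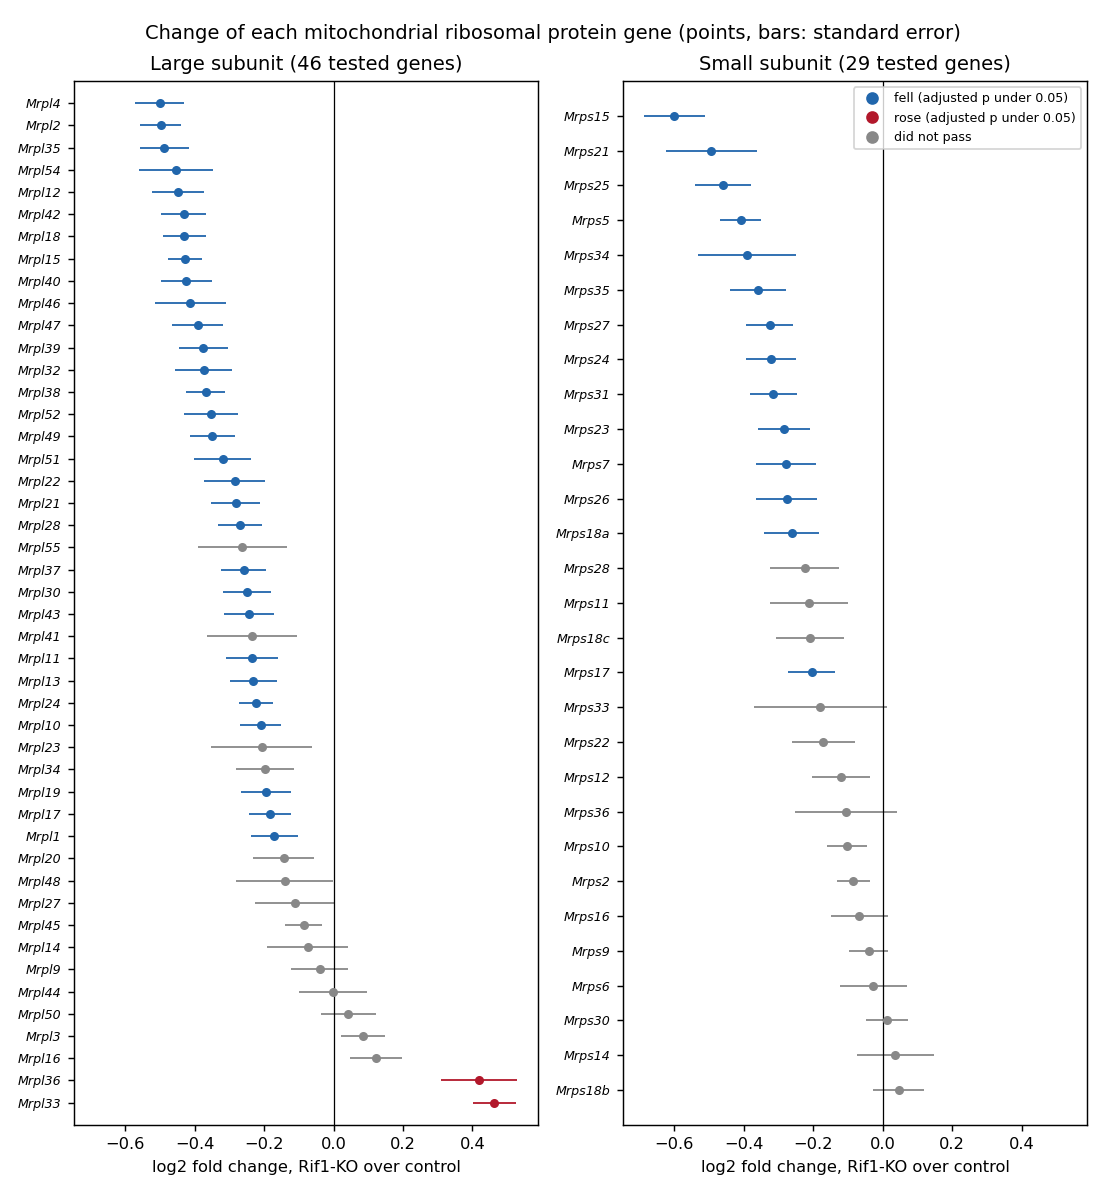
Log2 fold change (Rif1-KO over control) of each tested gene, with bars of 1 standard error, for 46 large-subunit genes (left) and 29 small-subunit genes (right), ordered from the steepest decrease. Blue genes fell, red genes rose and grey genes did not pass an adjusted p under 0.05; only Mrpl33 and Mrpl36 stand to the right of 0 among the genes that passed.

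**Figure D3:**
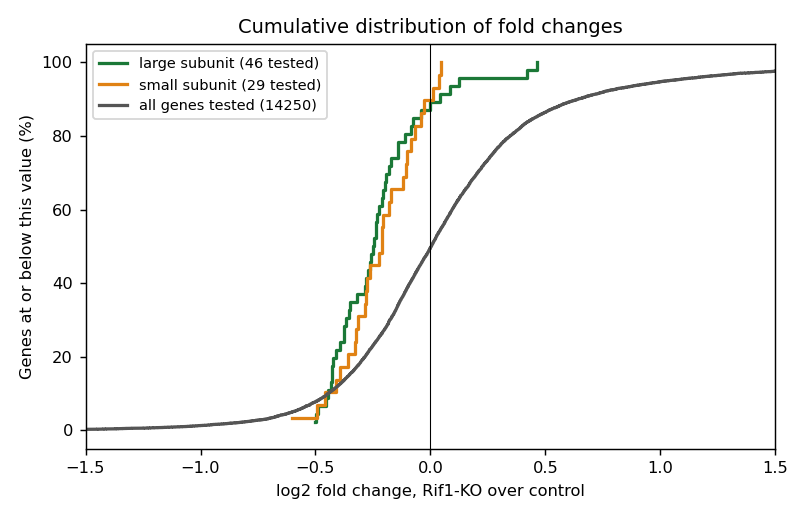
Cumulative share of genes at or below each log2 fold change, for large-subunit members, small-subunit members and all 14250 tested genes. The curves of both subunits pass 80% below 0, where the curve of all genes has reached 49.6%.

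By symbol, 30 of 46 tested large-subunit genes fell (65.2%) and 2 rose, with a median log2 fold change of −0.25. Of the 29 small-subunit genes 14 fell (48.3%) and none rose, with a median of −0.21. Over all tested genes 24.8% fell and 26.1% rose. The difference between the subunits was not tested. The count of 0 small-subunit genes that rose was also 0 at an unadjusted p under 0.05, by limma-voom and by DESeq2, by which 21.3% of all tested genes rose. With Mrps18a and Mrps30 counted in the large subunit, 31 of 48 fell there and 13 of 27 in the small subunit. The medians were the same to 2 decimals, and the 27 still include Mrps36, treated below. The places in the ribosome used next come from solved structures and were chosen after values were seen, so their counts are a description. Each count stands beside the 58.7% of all tested members and the 24.8% of all tested genes that fell. The named places hold only 4 to 8 tested genes each, and no place was tested against the others.

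The 4 steepest decreases in the large subunit were those of Mrpl4, Mrpl2, Mrpl35 and Mrpl54. Mrpl4, which lines the tunnel through which the new protein leaves, had 41.3, 47.9 and 42.1 CPM in Rif1-KO libraries and 58.1, 62.6 and 65.2 CPM in control libraries. The groups stood clear of each other, and the log2 fold change was −0.50 ± 0.07 (adjusted p = 5.56e-06, edgeR's quasi-likelihood test, as for every adjusted p below). Mrpl2, a core protein close to the peptidyl transferase centre, had 62.4, 65.0 and 58.0 CPM in Rif1-KO libraries and 82.4, 88.5 and 91.2 CPM in control libraries. Its lowest control library lay well above its highest Rif1-KO library (−0.50 ± 0.06, adjusted p = 8.53e-07). The other 3 proteins placed beside the centre or in the tunnel wall, Mrpl3, Mrpl16 and Mrpl27, did not pass, with log2 fold changes of 0.08, 0.12 and −0.11.

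Mrpl35, a large-subunit protein with a bacterial counterpart, had 39.8, 37.9 and 33.6 CPM in Rif1-KO libraries and 54.7, 51.5 and 50.1 CPM in control libraries. No library crossed over (−0.49 ± 0.07, adjusted p = 1.16e-05). Mrpl54, of the stalk region, had 15.9, 21.1 and 17.9 CPM in Rif1-KO libraries and 26.7, 26.4 and 22.0 CPM in control libraries, where the closest pair of libraries differed by less than 1 CPM. Its log2 fold change was −0.45 ± 0.11 (adjusted p = 0.00148).

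The stalk recruits the translation factors. All 4 of its tested proteins fell, namely Mrpl10, Mrpl11, Mrpl12 and Mrpl54, from −0.21 to −0.45, where 58.7% of all tested members fell. Mrpl11 lost its call without Rif1-KO replicate 1 or control replicate 2, and Mrpl10 with the GC and length offset. Mrpl12, which forms the flexible arms of the stalk, was at 39.5 ± 4.31 CPM in Rif1-KO libraries and 54.0 ± 2.42 CPM in control libraries (SD, n = 3 each), a log2 fold change of −0.45 ± 0.07. The fifth, Mrpl53, was the 1 member left untested, with 2 counts in each Rif1-KO library and 1, 2 and 0 counts in control libraries. In the annotation 88.0% of its exon bases lie under another gene, Ccdc142os among them and 78.5% of its transcript sequence occurs in another gene. Whether this bears on its low counts was not tested.

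The central protuberance, a crest on the large subunit where the 5S RNA of bacteria has been replaced, had 4 of 6 proteins that fell. They were Mrpl18, Mrpl38, Mrpl40 and Mrpl46, at −0.43, −0.37, −0.42 and −0.41. The other 2, Mrpl48 and Mrpl55, did not pass at −0.14 and −0.26. At the exit of the tunnel 4 of 6 fell, namely Mrpl17, Mrpl22, Mrpl24 and Mrpl47, from −0.18 to −0.39. Mrpl17 lost its call in 5 of the 14 alternative fits, among them those without Rif1-KO replicate 1 or 3 or control replicate 1 or 3, and Mrpl22 lost it in 3, among them those without Rif1-KO replicate 2 or control replicate 2. Mrpl45, which anchors the ribosome to the inner membrane, did not pass, with 97.1, 99.8 and 89.9 CPM in Rif1-KO libraries and 103.8, 101.1 and 99.8 CPM in control libraries. Its groups met at the same level to the first decimal (−0.09 ± 0.05, adjusted p = 0.179).

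Of the remaining 25 large-subunit genes 16 fell, 2 rose and 7 did not pass. Mrpl15 and Mrpl42 had the highest CPM among these 25. Mrpl15 had 91.2, 97.3 and 94.4 CPM in Rif1-KO libraries and 126.5, 130.7 and 123.3 CPM in control libraries (−0.43 ± 0.05, adjusted p = 5.66e-07). Mrpl42 had 74.6, 70.4 and 79.0 CPM in Rif1-KO libraries and 89.9, 108.1 and 104.3 CPM in control libraries (−0.43 ± 0.07, adjusted p = 1.58e-05). Neither gene's groups overlapped. Mrpl1, Mrpl13, Mrpl19, Mrpl21, Mrpl28, Mrpl30, Mrpl32, Mrpl37, Mrpl39, Mrpl43, Mrpl49, Mrpl51 and Mrpl52 also fell, from −0.17 at Mrpl1 to −0.37 at Mrpl39. Of these, Mrpl1, Mrpl19 and Mrpl43 lost their calls in 7, 5 and 2 of the alternative fits. Mrpl24, the third most counted large-subunit gene, was already placed at the exit, and had 87.5, 87.1 and 87.1 CPM in Rif1-KO libraries and 99.0, 103.5 and 102.8 CPM in control libraries (−0.22 ± 0.05, adjusted p = 0.000822). The genes that did not pass were Mrpl9, Mrpl14, Mrpl20, Mrpl34, Mrpl41, Mrpl44 and Mrpl50, between −0.24 at Mrpl41 and 0.04 at Mrpl50.

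The 2 members that rose are both short proteins of the large subunit with bacterial counterparts. Mrpl33 had 62.0, 60.7 and 58.8 CPM in Rif1-KO libraries, against 41.8, 43.5 and 46.5 CPM in control libraries. Every Rif1-KO library stood above every control library by a wide margin. The log2 fold change was 0.46 ± 0.06 (adjusted p = 4.18e-06), a ratio of 1.379, and it lay between 0.43 and 0.50 in all 14 alternative fits. Mrpl36 had 27.0, 27.5 and 22.0 CPM in Rif1-KO libraries and 20.7, 15.8 and 20.7 CPM in control libraries, so the lowest Rif1-KO library came close to the highest control libraries. Its log2 fold change was 0.42 ± 0.11 (adjusted p = 0.00314), and it passed in every alternative fit, at 0.31 to 0.51. No overlap with another gene or shared sequence reached 10% of either gene.

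**Figure D4:**
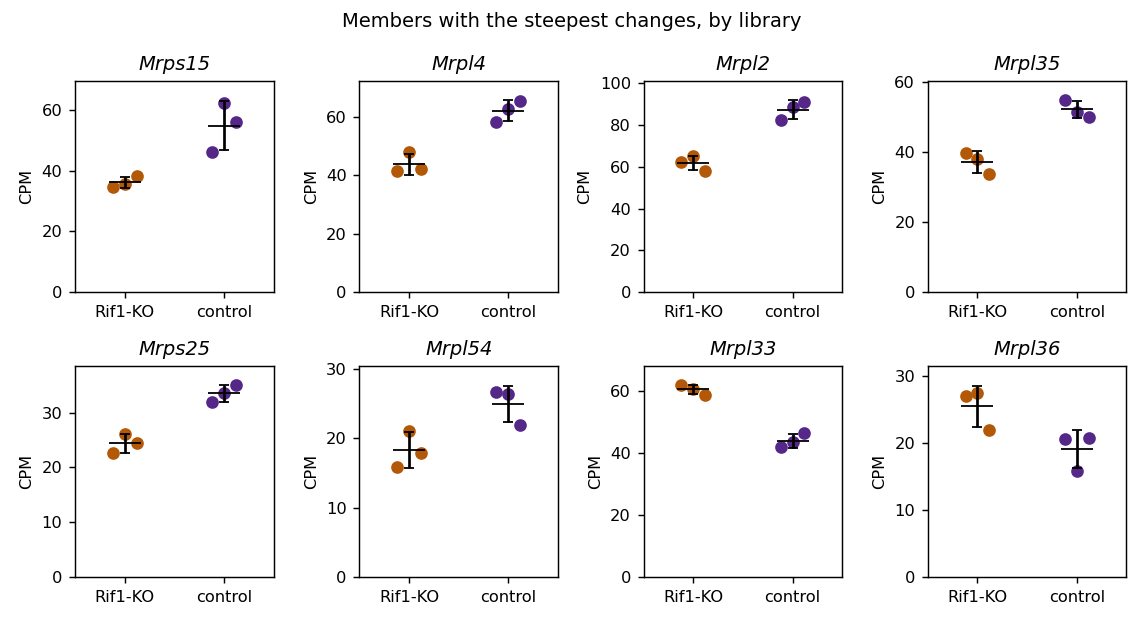
CPM by library of the 6 members with the steepest decreases among those without overlapping libraries, and of the 2 that rose, with Rif1-KO left of control in each panel. Points are libraries and bars the mean ± SD (n = 3 each); genes were chosen to have no overlap, which left out the steeper decrease of Mrps21, and the narrowest gap is at Mrpl54.

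In the small subunit, Mrps15 had the steepest decrease of all members. This protein of the platform had 34.6, 35.7 and 38.2 CPM in Rif1-KO libraries and 46.2, 62.2 and 56.2 CPM in control libraries. The control libraries were the more scattered, and all lay above the Rif1-KO libraries. The log2 fold change was −0.60 ± 0.09 (adjusted p = 9.96e-06). Mrps21, its neighbour in rank and also of the platform, fell at −0.49 ± 0.13 (adjusted p = 0.00388), although its groups overlapped, with 11.9, 12.3 and 17.7 CPM in Rif1-KO libraries and 17.4, 21.8 and 19.6 CPM in control libraries. The other 3 platform proteins, Mrps6, Mrps11 and Mrps18c, did not pass at −0.03, −0.21 and −0.21.

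Mrps25, a protein found in mitochondria alone, had 22.7, 26.2 and 24.4 CPM in Rif1-KO libraries and 32.0, 33.5 and 35.1 CPM in control libraries. The groups were well apart (−0.46 ± 0.08, adjusted p = 7.98e-05). In the annotation 69.8% of its exon bases lie opposite Nr2c2, and no source used here gives the strand setting of the counting, so reads of the pair cannot be told apart. Mrps5, which forms part of the channel where the mRNA enters, had 83.4, 91.5 and 95.9 CPM in Rif1-KO libraries and 110.7, 126.0 and 122.7 CPM in control libraries, again without overlap (−0.41 ± 0.06, adjusted p = 1.08e-05).

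In the head of the small subunit, which swings as the mRNA moves, 4 of 8 proteins fell. These were Mrps7, Mrps24, Mrps31 and Mrps35, from −0.28 to −0.36, and Mrps7 lost its call without control replicate 1. Mrps9, Mrps10, Mrps14 and Mrps33 did not pass. Mrps9 had 79.3, 89.3 and 84.2 CPM in Rif1-KO libraries and 84.1, 86.8 and 88.9 CPM in control libraries, a complete overlap (−0.04 ± 0.06, adjusted p = 0.565). Mrps10 had 81.6, 78.9 and 87.3 CPM in Rif1-KO libraries and 91.4, 83.1 and 91.2 CPM in control libraries, which also overlapped (−0.10 ± 0.06, adjusted p = 0.138). Mrps10 passed in 3 alternative fits, as when Rif1-KO replicate 3 was left out (−0.14, adjusted p = 0.0494).

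Of the remaining 16 small-subunit genes 8 fell and 8 did not pass. Those that fell were Mrps5, Mrps17, Mrps18a, Mrps23, Mrps25, Mrps26, Mrps27 and Mrps34, with the calls of Mrps17, Mrps18a, Mrps26 and Mrps34 each lost in at least 1 alternative fit, and those that did not were Mrps2, Mrps12, Mrps16, Mrps18b, Mrps22, Mrps28, Mrps30 and Mrps36. Mrps2, the most counted small-subunit gene, had 108.9, 109.9 and 112.6 CPM in Rif1-KO libraries and 115.6, 117.2 and 118.7 CPM in control libraries. The libraries did not overlap, yet the change was too small to pass (−0.09 ± 0.05, adjusted p = 0.138). Mrps12, a protein of the decoding centre, did not pass at −0.12 ± 0.08. Mrps36 is now known as a subunit of the 2-oxoglutarate dehydrogenase complex rather than of the ribosome, and it did not pass at −0.11 ± 0.15.

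Mrps18 exists as 3 paralogs that hold different places in the ribosome. Mrps18a, of the large subunit by structure, had 27.1, 32.2 and 32.5 CPM in Rif1-KO libraries and 36.0, 36.8 and 37.0 CPM in control libraries, and fell at −0.26 ± 0.08 (adjusted p = 0.00909). Without Rif1-KO replicate 1, the lowest library, the value was −0.18 (adjusted p = 0.0885) and the call was lost. Mrps18c, closest to the bacterial protein, had 20.8, 19.0 and 17.6 CPM in Rif1-KO libraries and 23.9, 22.6 and 20.1 CPM in control libraries (−0.21 ± 0.10, adjusted p = 0.0773). Its groups overlapped at a single pair of libraries. Mrps18b had 46.0, 40.7 and 44.5 CPM in Rif1-KO libraries and 42.8, 39.0 and 45.2 CPM in control libraries, with the groups interleaved (0.05 ± 0.07, adjusted p = 0.628). Of its transcript sequence 63.7% is shared with other genes, among them Gm16279. The differences among the 3 paralogs were not tested.

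Split by ancestry, 25 of 46 members with a bacterial counterpart fell (54.3%) and 2 rose, with a median log2 fold change of −0.21. Of 28 tested members classed as found in mitochondria alone, 19 fell (67.9%) and none rose, with a median of −0.30. Both shares stood above the 24.8% of all tested genes, and the difference between the classes was not tested. No gene of the second class rose at an unadjusted p under 0.05, by DESeq2 or by limma-voom either. The 1 member left without a class was Mrps36. The second class holds Mrps18a, which fell, and Mrps18b, which did not pass, although both are paralogs of Mrps18c, which was classed as bacterial.

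Part of the members share sequence or ground with other genes, and no source used here states the strand setting or the treatment of multiply mapped reads. At 49 members, under 10% of the transcript sequence occurred in other genes and under 10% of exon bases lay under another gene. Of these 49, 27 fell (55.1%) and 2 rose, with a median log2 fold change of −0.23, against −0.26 in the 26 other tested members, of which 17 fell. Mrps34 was the most covered of the genes that fell, with 77.8% of its exon bases under Mapk8ip3 and Nme3, and its groups overlapped at 7.05, 7.27 and 8.53 CPM in Rif1-KO libraries and 10.6, 8.38 and 10.7 CPM in control libraries. Its call (−0.39 ± 0.14, adjusted p = 0.0251) was lost in 7 of the 14 alternative fits, among them those without Rif1-KO replicate 1 or 2 or control replicate 1 or 3. Mrpl24 shares 26.3% of its exon bases with Rrnad1 on the opposite strand, Mrpl19 shares 36.0% with Gcfc2, and Mrpl43 shares 33.4% with Twnk, a helicase gene of the mitochondrial DNA that itself fell.

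The members are scattered over 17 chromosomes, with 10 on chromosome 11. Their longest annotated transcripts were short, at a median of 1849 bases against 3273 bases for all tested genes, and their median GC content was 49.7%. With the fit offset for transcript GC and length, 43 members fell and 2 rose, where 25.6% of all tested genes fell and 25.1% rose.

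Promoters are shown for the steepest decrease (Mrps15), for both genes that rose (Mrpl33 and Mrpl36), for a member with a motif of NRF1 (Mrpl39), for one with an ETS motif of the GABP type (Mrpl51), and for a pair of members that face away from each other (Mrps11 and Mrpl46). NRF1, GABP and YY1 are factors known to bind promoters of nuclear genes for mitochondrial proteins, and the E-box is bound by MYC family proteins. Each stretch is the 150 bases before the RefSeq start on build GRCm38.p6, written 5′ to 3′ on the gene's strand, with matches of the 4 motifs searched in capitals. The coordinates are those of RefSeq's build, while the counts were made on mm9. Mrps15 lies at chr4:126046778-126046927 (plus strand), Mrpl33 at chr5:31613801-31613950 (plus), Mrpl36 at chr13:73330859-73331008 (plus), Mrpl39 at chr16:84735245-84735394 (minus), Mrpl51 at chr6:125192050-125192199 (plus), Mrps11 at chr7:78782981-78783130 (plus) and Mrpl46 at chr7:78783090-78783239 (minus).
Mrps15: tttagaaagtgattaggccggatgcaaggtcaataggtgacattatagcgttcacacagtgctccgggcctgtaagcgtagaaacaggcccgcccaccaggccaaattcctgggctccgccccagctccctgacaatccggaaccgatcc
Mrpl33: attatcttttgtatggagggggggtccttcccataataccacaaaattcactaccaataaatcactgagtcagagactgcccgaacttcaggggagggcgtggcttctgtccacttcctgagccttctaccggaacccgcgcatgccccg
Mrpl36: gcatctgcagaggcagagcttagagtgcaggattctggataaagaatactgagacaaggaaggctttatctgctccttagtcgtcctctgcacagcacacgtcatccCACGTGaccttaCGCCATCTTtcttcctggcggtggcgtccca
Mrpl39: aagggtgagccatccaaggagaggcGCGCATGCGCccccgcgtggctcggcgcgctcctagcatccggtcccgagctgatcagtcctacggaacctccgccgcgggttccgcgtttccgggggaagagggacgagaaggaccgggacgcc
Mrpl51: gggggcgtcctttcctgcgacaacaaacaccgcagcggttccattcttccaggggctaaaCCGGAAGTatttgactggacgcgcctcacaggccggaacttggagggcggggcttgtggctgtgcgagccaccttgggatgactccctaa
Mrps11: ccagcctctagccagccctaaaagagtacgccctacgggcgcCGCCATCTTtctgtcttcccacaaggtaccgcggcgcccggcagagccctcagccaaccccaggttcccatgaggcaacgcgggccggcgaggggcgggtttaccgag
Mrpl46: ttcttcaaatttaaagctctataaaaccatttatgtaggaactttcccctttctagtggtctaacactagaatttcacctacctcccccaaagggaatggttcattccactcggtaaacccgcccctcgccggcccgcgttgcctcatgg

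The stretch of Mrps15 holds none of the 4 motifs, and that of Mrpl36 holds an E-box followed by a YY1 motif on the other strand. Mrpl39 fell at −0.37 ± 0.07 and carries the NRF1 motif, and Mrpl51 fell at −0.32 ± 0.08 and carries the ETS motif. In the longer promoters searched below, the NRF1 motif was held by 2 members that fell and 1 other. The ETS motif was held there by 6 members that fell and 6 others. The RefSeq starts of Mrps11 and Mrpl46 lie 42 bases apart and their printed stretches share 41 bases, and in the annotation 12.2% of the exon bases of Mrpl46 lie opposite Mrps11. Mrpl46 fell, with 13.4, 12.4 and 12.5 CPM in Rif1-KO libraries and 17.2, 17.9 and 16.04 CPM in control libraries (−0.41 ± 0.10, adjusted p = 0.00226). Mrps11 did not pass, with 16.99, 15.4 and 13.1 CPM in Rif1-KO libraries and 19.0, 15.9 and 17.9 CPM in control libraries (−0.21 ± 0.11, adjusted p = 0.118), and the difference between the 2 genes was not tested.

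RefSeq promoters, 250 bases before to 50 after the start, were found for 67 of the 76 members and searched on both strands. The ETS motif CCGGAAGT occurred in 12 of the 67 (17.9%), against 8.78% of the 10624 tested genes with a promoter. The YY1 motif AAGATGGCG occurred in 8 (11.9%), against 3.45%. The NRF1 motif, in capitals in the stretch of Mrpl39, occurred in 3 (4.48%), against 2.32%, and the E-box CACGTG in 5 (7.46%), against 11.9%. Among members that fell, 16.7% held the ETS motif and 16.7% the YY1 motif, while among the other members 19.4% and 6.45% did. For YY1 these shares are 6 of 36 and 2 of 31 genes. Of all tested genes that fell, 9.62% held the ETS motif and 5.37% the YY1 motif. Members with the YY1 motif included Mrpl36, which rose, beside Mrpl35, Mrpl37, Mrpl42, Mrps18a, Mrps24 and Mrps27, which fell, and Mrps11, which did not pass. Mrpl33 held an ETS motif outside the stretch printed here. No motif contains another, and these matches are a description of letters.

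Some members start close to a neighbour on the opposite strand. At 22 of the 76 (28.9%) another protein-coding gene started within 1000 bases on the opposite strand and ran the other way, or overlapped by at most 200 bases at its 5′ end. The share was 11.6% of 12883 tested protein-coding genes. Whether such pairs share a promoter was not tested. Mrps11 and Mrpl46 are not among the 22, since their annotated genes overlap by more than this. Of the 22 partners 10 fell (24.8% of all tested genes did), 1 rose (26.1% did) and the others did not pass. Mrpl40 and Hira, a histone chaperone gene, both fell (−0.42 ± 0.07 and −0.39 ± 0.06), as did Mrpl51 and the condensin gene Ncapd2 (−0.32 ± 0.08 and −0.49 ± 0.04), and Mrps5 and Zfp661 (−0.41 ± 0.06 and −0.49 ± 0.09). Mrps12 did not pass while its partner Sars2, the mitochondrial seryl-tRNA synthetase gene, fell at −0.49 ± 0.08 (adjusted p = 5.09e-05). Mrpl36 rose while its partner Ndufs6, a subunit of complex I, did not pass at −0.16 ± 0.07 (adjusted p = 0.0569).

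Some proteins of the mitochondrial ribosome go by other names and fall outside the rule. Of 7 such genes 6 fell (85.7%, against 24.8% of all tested genes) and none rose (26.1% of all did), with a median log2 fold change of −0.39. Ptcd3, a small-subunit protein, had 90.6, 97.6 and 105.0 CPM in Rif1-KO libraries and 124.3, 137.4 and 140.4 CPM in control libraries (−0.46 ± 0.06, adjusted p = 2.34e-06). Ict1, a large-subunit protein that frees stalled chains, had 19.9, 21.0 and 22.8 CPM in Rif1-KO libraries and 27.9, 36.1 and 31.8 CPM in control libraries (−0.59 ± 0.10, adjusted p = 3.37e-05). Aurkaip1, of the small subunit, had 47.2, 45.5 and 41.5 CPM in Rif1-KO libraries and 56.2, 56.7 and 58.0 CPM in control libraries (−0.35 ± 0.06, adjusted p = 0.000144). In none of the 3 did the groups overlap. Chchd1, Gadd45gip1 and Mrp63 also fell, and Dap3 did not pass at −0.10 ± 0.07. The counts of 0 that rose in this list and among the assembly genes were 0 also at an unadjusted p under 0.05, by DESeq2 and by limma-voom.

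Among factors that build the ribosome, 10 of 26 assembly genes fell (38.5%, against 24.8% of all tested genes) and none rose (26.1% of all did), with a median of −0.18. The count was 6 by DESeq2, by which 20.2% of all tested genes fell, 6 without Rif1-KO replicate 1 (21.0% of all) and 6 without control replicate 3 (21.2% of all). In these fits the share of the 26 assembly genes that fell lay near the background. Ybey, an endonuclease needed for the small subunit, had 6.42, 6.57 and 6.13 CPM in Rif1-KO libraries and 11.9, 13.5 and 10.4 CPM in control libraries (−0.90 ± 0.14, adjusted p = 1.64e-05). Rbfa, which matures the small-subunit RNA, had 21.0, 22.2 and 19.7 CPM in Rif1-KO libraries and 29.8, 32.4 and 30.2 CPM in control libraries (−0.55 ± 0.08, adjusted p = 1.35e-05). Both stood far apart between the groups. The GTPase gene Noa1, listed as 2610024G14Rik, fell at −0.41 ± 0.10.

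Of 15 translation factors 8 fell (53.3%, against 24.8% of all tested genes) and 1 rose (26.1% did), with a median of −0.22. The gene that rose was Guf1, at 0.21 ± 0.06 (adjusted p = 0.00915). The count that fell was 4 by DESeq2 (20.2% of all tested genes), 4 without Rif1-KO replicate 1 (21.0% of all) and 5 without control replicate 1 (23.3% of all), so that these shares lay nearer to the background. Guf1 no longer passed without control replicate 2 or under the GC and length offset. Lrpprc, which stabilises mitochondrial mRNAs, had 142.7, 136.1 and 138.9 CPM in Rif1-KO libraries and 208.0, 212.5 and 214.3 CPM in control libraries (−0.60 ± 0.05, adjusted p = 1.26e-09). Oxa1l, the insertase that receives new chains at the membrane, had 86.0, 87.2 and 88.0 CPM in Rif1-KO libraries and 104.2, 103.6 and 99.6 CPM in control libraries (−0.24 ± 0.05, adjusted p = 0.000515). Tufm, the elongation factor that delivers tRNAs, had 28.7, 27.4 and 30.0 CPM in Rif1-KO libraries and 37.1, 35.7 and 34.3 CPM in control libraries (−0.32 ± 0.07, adjusted p = 0.00127). The groups were separate at all 3 genes.

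Of 15 genes for transcribing, copying and processing the mitochondrial genome 10 fell (66.7%, against 24.8% of all tested genes) and 1 rose (26.1% of all did), with a median of −0.29. The gene that rose was the DNA polymerase gene Polg, at 0.17 ± 0.05, which did not pass with the offset. Twnk, listed as Peo1, had 23.1, 22.9 and 22.8 CPM in Rif1-KO libraries and 38.1, 35.5 and 36.8 CPM in control libraries (−0.68 ± 0.07, adjusted p = 2.79e-07). Tfam, which packages the DNA and starts its transcription, had 66.4, 67.7 and 67.2 CPM in Rif1-KO libraries and 88.9, 88.2 and 87.0 CPM in control libraries (−0.39 ± 0.05, adjusted p = 2.93e-06). Elac2, which trims tRNA ends, fell at −0.43 ± 0.06 (adjusted p = 7.31e-06). Of the ribosome's own RNAs, which lack the long poly(A) tails that mRNA kits select, the 12S RNA mt-Rnr1 fell, with 462, 474 and 545 CPM in Rif1-KO libraries and 546, 646 and 628 CPM in control libraries (−0.30 ± 0.06, adjusted p = 0.000611). The 16S RNA mt-Rnr2 did not pass at −0.10 ± 0.06 (adjusted p = 0.157).

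**Figure D5:**
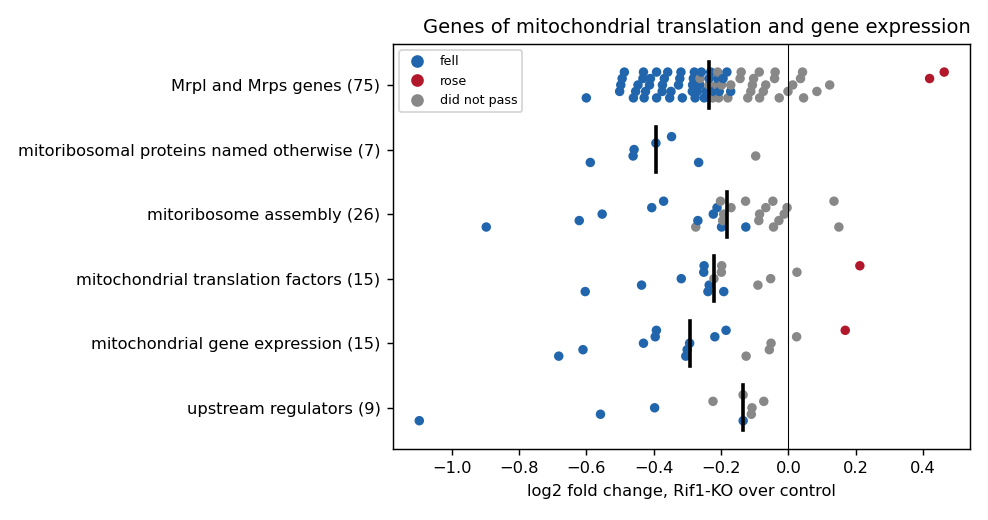
Log2 fold change (Rif1-KO over control) of the 75 tested members and of 5 lists of related genes, with the number tested in parentheses. Each point is a gene, coloured by its call at an adjusted p under 0.05, and each black bar the median, which runs from −0.39 in ribosomal proteins named otherwise to −0.13 in upstream regulators.

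Among 11 regulators known to act on nuclear genes for mitochondrial proteins, 9 were tested, 4 fell (44.4%, against 24.8% of all tested genes) and none rose (26.1% of all did). The count that rose, 0, was also 0 at an unadjusted p under 0.05, by DESeq2 and by limma-voom. It was 1, Ppargc1a, when low counts were not filtered, and ran from 0 to 1 when single libraries were left out. The count that fell was 2 without control replicate 3, a share close to the 21.2% of all genes that fell in that fit, and 7 under the GC and length offset (25.6% of all). Mycn, a MYC family gene known for driving growth, had 52.2, 54.4 and 47.8 CPM in Rif1-KO libraries and 118.2, 105.9 and 106.4 CPM in control libraries. The groups were far apart, with a log2 fold change of −1.10 ± 0.06 (adjusted p = 2.1e-11). Pprc1, a coactivator of the PGC-1 family, had 178.2, 177.3 and 184.6 CPM in Rif1-KO libraries and 260.7, 274.0 and 260.5 CPM in control libraries (−0.56 ± 0.05, adjusted p = 3.83e-09). Ppargc1b, of the same family, fell at −0.40 ± 0.12 (adjusted p = 0.0111), a call lost without control replicate 3 (adjusted p = 0.0501), and Gabpb2 fell at −0.13 ± 0.06 (adjusted p = 0.0478), a call lost by DESeq2 and in 4 of the 6 fits without 1 library. Nrf1, Gabpa, Gabpb1, Yy1 and Esrra did not pass, from −0.07 to −0.22. Myc and Ppargc1a had too few counts to be tested in this fit, at 0.743 ± 0.280 and 1.55 ± 0.595 CPM in Rif1-KO libraries and 0.449 ± 0.0883 and 0.0405 ± 0.0702 CPM in control libraries (SD, n = 3 each). At Ppargc1a every Rif1-KO library lay above every control library. The part of these regulators in the lower level of the ribosomal protein genes was not tested.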

How the data were processed

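Total RNA of 6 libraries, 3 Rif1-KO and 3 control, was prepared as mRNA libraries, per the labels' protocols. A table per library was deposited, with raw counts for each gene symbol and no normalization. STAR and featureCounts 1.6.2 on mouse build mm9 are named in the submitters' processing notes. No source used here states the annotation version, the strand setting or the treatment of multiply mapped reads.

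From the deposited counts, CPM were computed after TMM scaling, and genes passing filterByExpr were tested with edgeR 4.0.16 under R 4.3.3 by the quasi-likelihood test with group as the sole term, adjusted by Benjamini and Hochberg over 14250 genes. Errors are standard errors for log2 fold changes and SD for CPM. DESeq2 1.42.0, limma-voom (limma 3.58.1), other scalings, no filter, a replicate block, an offset for GC content and length, and leaving out each library were alternatives. A restriction to members with little shared sequence was added after seeing the data.

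Members and lists were chosen with earlier results of these data known, so their counts are set beside those over all genes and no test was made over a list. Named genes are the up to 6 steepest changes in each direction without overlapping libraries, the 4 members of each subunit with the highest CPM, the Mrps18 paralogs, the untested member, Rif1, and up to 3 genes per list by adjusted p. Mrps21, Mrps34, Mrps12, Mrps36, Mrpl12, Mrpl46, Mrps11, Thy1, Pdgfrb, the neighbours on the opposite strand, the stem cell markers beyond the rule and genes named within lists beyond these were chosen after their values were seen. Mrpl39 and Mrpl51, shown for their motifs, were picked by no rule set in advance, and both are members that fell. Names, transcript lengths, overlaps and order of genes come from GENCODE M21 and promoters from RefSeq, both on GRCm38, since no mm9 genome was used here.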

Additional observations from a re-analysis of the deposited data

How the results depend on the processing

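Over 14 alternative fits 39 to 47 members fell and 2 rose. Among all tested genes 14.9% to 26% fell and 16.7% to 27.4% rose in these fits. In every fit 32 of the members fell. The 12 others that fell were Mrpl1, Mrpl10, Mrpl11, Mrpl17, Mrpl19, Mrpl22, Mrpl43, Mrps7, Mrps17, Mrps18a, Mrps26 and Mrps34, each lost in at least 1. Leaving out a single library ended each of these calls but that of Mrpl10, which was lost under the GC and length offset. Replicate numbers are shared by the groups, and nothing says that they pair the libraries. Deviations of same-numbered libraries correlated at 0.08, −0.06 and 0.05, and those of differently numbered libraries at −0.161 to 0.116. With 3 libraries in each group these values do not settle whether the numbers pair the libraries. With a replicate block 47 members fell, 31 of the large and 16 of the small subunit, and 2 rose. Of all tested genes 25.3% fell and 26.5% rose in that fit. Mrps18c then passed (adjusted p = 0.0499).

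The median log2 fold change of the members was −0.22 with library totals alone, −0.21 under the GC and length offset, and −0.21 with offset and replicate block, against −0.24. For the large subunit these were −0.23, −0.22 and −0.22, for the small subunit −0.16 and −0.17 with the offset alone and with the block, and for bacterial-type members −0.18 and −0.18. Leaving out each library gave medians of −0.26 to −0.23 for the members, −0.27 to −0.24 for the large and −0.26 to −0.18 for the small subunit. Members that rose by at least 0.32 on the log2 scale numbered 1 to 2, assembly genes that fell 6 to 10, translation factors that fell 4 to 7 and rose 0 to 1, and upstream regulators that fell 2 to 6 and rose 0 to 1. By DESeq2, 6 assembly genes and 4 translation factors fell. With the offset, alone or with the block, 0 translation factors and 0 genes of mitochondrial gene expression rose, and 7 upstream regulators fell. Without a filter on low counts 1 upstream regulator, Ppargc1a, rose. Counting Mrps18a and Mrps30 with the large subunit took the small-over-large difference to 1.021-fold. The sign turned at Mrps18b without control replicate 2 and at Mrps9 without Rif1-KO replicate 1, neither of which passed in any fit; with 1 library left out, Mrps18b ran from −0.0105 to 0.0939 and Mrps9 from −0.0858 to 0.0032. Other causes of these shifts were not tested.

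Depth limits the precision of members under 10 CPM, whose standard errors reached 0.19, at Mrps33. Of these members Mrps34 alone passed.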
